A study of Mus musculus with 12 samples.

Results

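Sterol and fatty acid synthesis was followed through 32 genes in large peritoneal macrophages of mice, which live in the peritoneal cavity. The members were the rows of the count table whose Ensembl identifiers carry the listed symbols, and all 32 were present among 57010 genes. They comprised 18 enzymes of cholesterol synthesis, 5 genes for its regulators and a sterol carrier, and 9 genes of fatty acid synthesis, elongation and desaturation. RNA was sequenced in 12 libraries from female mice, 3 from each of 4 groups. WT naive and Tim4KO naive were unchallenged wild-type mice and unchallenged mice without Tim4. This receptor, encoded by Timd4, binds phosphatidylserine on dying cells. WT ID8 and Tim4KO ID8 were mice of the same genotypes injected into the peritoneum, at 8 weeks of age, with ID8 cells, and their macrophages were taken 24 h later. ID8 is a mouse ovarian tumour line that here expressed ZsGreen and OVA (ovalbumin). All macrophages were sorted as F4/80high MHCIIlow. In the ID8 groups only ZsGreen+ cells were kept, so challenge and uptake of tumour material cannot be told apart. The age of the naive mice, the way the Tim4 allele was made and whether a library came from 1 animal are not given in the sources used here, so p-values measure the spread between these libraries.

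Cholesterol is built from acetyl-CoA through mevalonate, squalene and lanosterol, and fatty acids are built from the same acetyl-CoA by way of malonyl-CoA. Most genes of both routes are known targets of the sterol regulatory element-binding proteins (SREBPs). INSIG proteins hold SREBPs in the endoplasmic reticulum while sterol is plentiful, and they are escorted by SCAP to the Golgi for cleavage when it is scarce. Srebf1, Fasn and Scd1 are also known targets of the liver X receptors, which sense oxysterols. A macrophage that engulfs another cell takes in that cell's cholesterol and fatty acids with it.

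Library totals ran from 7358559 to 23170244 counts, and levels are given as CPM, counts scaled to a common library size with TMM, a trimmed-mean correction for library composition. A gene was called when its edgeR p, adjusted by the Benjamini-Hochberg method over 15943 tested genes, was under 0.05 in a two-sided test. Timd4 matched the labels, at 882.5 to 1489 CPM in the 6 WT libraries and at 1.38 to 7.71 CPM in the 6 Tim4KO libraries. The 8 markers of large peritoneal macrophages were all present. They summed to 6139 to 7907 CPM in naive and 8617 to 11577 CPM in ID8 libraries. Adgre1, which encodes F4/80, was at 2569 to 3789 CPM in naive and 3932 to 6299 CPM in ID8 libraries. Genes of this list did not move alike. In the same order Cd5l was at 578.6 to 1180 and 1484 to 2579 CPM, and Mertk at 141.2 to 216.5 and 129.6 to 133.8 CPM. A list of 8 epithelial, mesothelial and tumour cell markers summed to 1.1 to 4.61 CPM in the ID8 libraries, below the 5.14 to 22.5 CPM of the naive libraries. In these lists 2 libraries stood apart. WT naive 1 held the highest sums of the epithelial list, of small macrophage and dendritic cell markers and of background reads, given beside the sterol enzymes. WT ID8 3 carried 3464 CPM of a 16-gene cell cycle list, where the next highest ID8 library held 1193 CPM and naive libraries held 318.5 to 532.3 CPM.

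Promoters of 7 members are shown as examples. They are some of the called genes, together with Hmgcs1, the only member whose window held the shorter sterol element. Each is the 250 bases before an annotated RefSeq start in GRCm38.p6, written 5′ to 3′ on the strand of the gene. Capitals mark CCAAT, the box bound by NF-Y (read as ATTGG on the other strand), and TCACNCCAC, a sterol regulatory element. Dhcr7 and Srebf1 have several annotated starts, numbered by chromosome position, of which the third and the first, respectively, are printed. On the minus strand the first of Srebf1 is the most downstream. The other Dhcr7 windows and the second Srebf1 window held no CCAAT. All 7 printed windows hold CCAAT, which is not so for all called genes. Among called genes not printed, the windows of Acly, Scap and Elovl6 held none. The window of Mvk and the first of Pmvk held it, as did that of the regulator Srebf2, also not printed. Scd1 and Scd2 had no promoter in the RefSeq table.
Mvd (chr8:122443423-122443672, minus strand): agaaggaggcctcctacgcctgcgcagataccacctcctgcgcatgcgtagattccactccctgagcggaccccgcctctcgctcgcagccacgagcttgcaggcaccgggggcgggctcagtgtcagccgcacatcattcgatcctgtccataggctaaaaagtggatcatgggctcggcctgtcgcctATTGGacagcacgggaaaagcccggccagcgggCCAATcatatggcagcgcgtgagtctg
Ebp (chrX:8193513-8193762, minus strand): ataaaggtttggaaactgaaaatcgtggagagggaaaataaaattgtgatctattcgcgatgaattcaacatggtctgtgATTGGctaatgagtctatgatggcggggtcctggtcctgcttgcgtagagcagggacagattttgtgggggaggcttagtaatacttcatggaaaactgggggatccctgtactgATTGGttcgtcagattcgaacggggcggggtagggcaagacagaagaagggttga
Dhcr7 (chr7:143829964-143830213, plus strand): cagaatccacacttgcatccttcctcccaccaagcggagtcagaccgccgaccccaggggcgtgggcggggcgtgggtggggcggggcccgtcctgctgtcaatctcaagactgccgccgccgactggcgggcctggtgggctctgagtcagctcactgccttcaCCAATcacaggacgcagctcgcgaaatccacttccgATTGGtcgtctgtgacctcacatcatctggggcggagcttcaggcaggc
Hmgcs1 (chr13:119690101-119690350, plus strand): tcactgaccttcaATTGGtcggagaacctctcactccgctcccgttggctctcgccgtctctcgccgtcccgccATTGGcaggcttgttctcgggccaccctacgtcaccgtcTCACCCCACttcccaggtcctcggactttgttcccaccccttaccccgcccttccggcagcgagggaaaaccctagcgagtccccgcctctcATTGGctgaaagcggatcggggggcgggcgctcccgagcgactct
Insig1 (chr5:28071162-28071411, plus strand): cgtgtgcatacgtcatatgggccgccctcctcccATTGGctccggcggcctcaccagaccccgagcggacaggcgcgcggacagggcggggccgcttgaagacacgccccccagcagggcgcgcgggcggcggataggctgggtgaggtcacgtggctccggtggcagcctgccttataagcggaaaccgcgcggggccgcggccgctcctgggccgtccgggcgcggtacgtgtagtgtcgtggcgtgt
Srebf1 (chr11:60210472-60210721, minus strand): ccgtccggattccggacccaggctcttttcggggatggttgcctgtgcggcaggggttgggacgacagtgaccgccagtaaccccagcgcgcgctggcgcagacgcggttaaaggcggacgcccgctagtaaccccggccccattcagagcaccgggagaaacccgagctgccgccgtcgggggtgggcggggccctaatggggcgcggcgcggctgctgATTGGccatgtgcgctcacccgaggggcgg
Fasn (chr11:120824548-120824797, minus strand): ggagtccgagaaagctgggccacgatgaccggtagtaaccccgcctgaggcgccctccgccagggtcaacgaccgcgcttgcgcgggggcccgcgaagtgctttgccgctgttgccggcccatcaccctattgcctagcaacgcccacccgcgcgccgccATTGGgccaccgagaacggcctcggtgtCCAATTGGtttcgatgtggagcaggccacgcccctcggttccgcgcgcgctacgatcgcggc

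Of the 32 members, 25 had promoters in the RefSeq table, 31 promoters in all. CCAAT on either strand was found in 14 of the 18 promoters of sterol enzymes (77.8%), in 4 of the 7 of regulators (57.1%) and in 2 of the 6 of the fatty acid branch (33.3%), against 33.8% of all 32851 promoters of the same length. In the Mvd window the box occurred at 60 to 56 and at 27 to 23 bases before the start. GC boxes (GGGCGG, either strand) were in 83.3%, 71.4% and 33.3% of the promoters of sterol enzymes, regulators and the fatty acid branch, against 32.7% of all promoters. E-boxes (CACGTG) were in 16.7%, 28.6% and 16.7%, against 6.02%. TCACNCCAC was in the promoter of Hmgcs1 alone, from 137 to 129 bases before the start, which is 3.23% of the members' promoters against 1.05% of all. A longer form of this element with 10 letters was in 0 of the members' 31 promoters and in 0.0731% of all. These matches describe the letters of the windows and were not tested.

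Levels differed by more than 3 orders of magnitude between members. Per kilobase of exon, averaged over the 12 libraries, Acly stood highest at 217.1 CPM per kb, followed by the elongase Elovl5 at 103.7 and by Ebp at 32.8 CPM per kb. Mvd and Insig1 followed at 16.6 CPM per kb each, and Acaca at 9.81, Srebf1 at 8.83 and Srebf2 at 8.08 CPM per kb came next. Most sterol enzymes lay lower, down to 0.879 CPM per kb for Lss and 0.832 CPM per kb for Tm7sf2. Fads2, a fatty acid desaturase, was lowest at 0.125 CPM per kb and, with 2 to 10 counts per library, was the only member that did not pass the filter on low counts. The other 31 were tested.

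The tumour challenge was the comparison in which members moved. In WT, 9 of 31 tested members rose (29.0%) and 1 fell, where 19.5% of all tested genes rose and 12.3% fell. In Tim4KO, 10 rose (32.3%) and 0 fell, where 11.5% of all tested genes rose and 5.06% fell. Mvd, Ebp, Dhcr7, Srebf1, Fasn, Scd1 and Scd2 rose in both genotypes. Acly and Scap rose and Insig1 fell in the WT comparison, Mvk, Pmvk and Elovl6 rose in the Tim4KO comparison, and 18 members were called in neither. In WT 10 of 31 members had every ID8 library above every naive one and 3 (Elovl5, Insig1 and Sc5d) every one below, which 23.3% and 21.0% of all tested genes did. In Tim4KO 19 lay above and 0 below, beside 23.7% and 18.1%. The share of calls that were increases depended on the scaling: over all genes it was 61.3% in WT with TMM and 33.9% with upper-quartile scaling, and 69.5% and 48.7% in Tim4KO. With upper-quartile scaling the all-gene median log2 change went from -0.04 to -0.28 in WT and from -0.05 to -0.17 in Tim4KO. Several marker lists moved with the challenge, among them that of large peritoneal macrophages given above. Neutrophil markers (7 genes) summed to 6.71 to 10.1 CPM in naive and 11.7 to 32.5 CPM in ID8 libraries. The largest part was S100a8, at 4.4 to 7.38 CPM in naive and 9.13 to 24.8 CPM in ID8 libraries. Ly6g, Mpo and Elane did not pass the filter on low counts and did not rise with it. Ly6g was at 0 to 0.231 CPM in all libraries, and Mpo and Elane at 0.0668 to 0.788 CPM in naive and 0 to 0.554 CPM in ID8 libraries. The cell cycle list summed to at most 532.3 CPM in naive and at least 796.6 CPM in ID8 libraries. Genes of the cell cycle list did not move alike. Mcm6 was at 52.3 to 77.4 CPM in naive and 184.3 to 387.4 CPM in ID8 libraries. Ccnb2 was at 6.17 to 21.5 CPM in naive libraries, 105.1 CPM in WT ID8 3 and 1.15 to 2.58 CPM in the other ID8 libraries. Mki67 was at 16.9 to 60.4, 380.2 and 11.3 to 23.1 CPM in the same order. Mast cell markers (5 genes) summed to 8.65 to 28.4 CPM in naive and 1.73 to 6.46 CPM in ID8 libraries, and B cell markers (6 genes) to 8.34 to 21.8 and 3.44 to 8.52 CPM. Background reads, summed over olfactory and vomeronasal receptor genes, were at 259.0 to 813.5 CPM in naive and 5.89 to 347.2 CPM in ID8 libraries. Their part in the challenge changes was not tested. In bulk RNA, fewer cells that use a gene and less of its RNA per cell cannot be told apart.

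**Figure D1:**
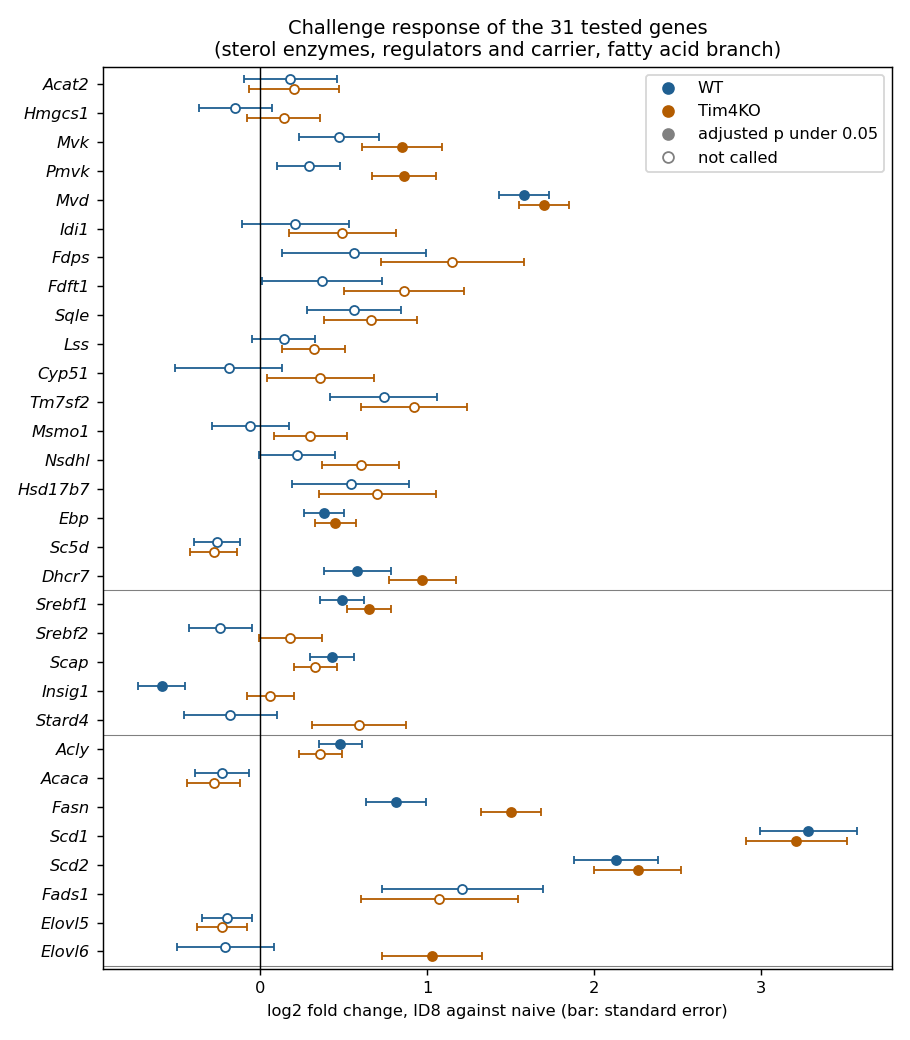
Log2 fold change of ID8 against naive (horizontal axis) for the 31 tested genes, in WT (blue) and Tim4KO (orange), with bars of 1 standard error and filled points for calls at an adjusted p under 0.05. Scd1, Scd2, Mvd and Fasn lie farthest to the right in both genotypes among the called genes, and Insig1 is the only gene called lower (in WT).

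Mvd, which encodes the decarboxylase that makes isopentenyl diphosphate, was the sterol enzyme that rose most. Its levels were 16.7, 15.9 and 14.2 CPM in WT naive and 17.6, 12.2 and 13.5 CPM in Tim4KO naive, and they were 48.8, 40.7 and 49.8 CPM in WT ID8 and 48.6, 47.5 and 44.8 CPM in Tim4KO ID8. Every ID8 library was above every naive library, and the genotypes overlapped in both conditions. The mean went from 15.6 ± 1.28 to 46.4 ± 4.97 CPM in WT (SD, n = 3) and from 14.4 ± 2.82 to 47.0 ± 1.93 CPM in Tim4KO (SD, n = 3). These are log2 changes of 1.58 (SE 0.15, edgeR adjusted p = 5.21e-06) and 1.70 (SE 0.15, edgeR adjusted p = 6.56e-06). Mvd was called in both genotypes in all 12 fits that left out 1 library and in all 9 other settings, with log2 changes of 1.34 to 1.88.

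Ebp and Dhcr7, which act in the late steps from lanosterol to cholesterol, rose by less. Ebp, the sterol isomerase, was at 67.9, 66.2 and 66.0 CPM in WT naive and at 84.0, 82.7 and 93.4 CPM in WT ID8. In Tim4KO it was at 71.4, 57.7 and 60.3 CPM in naive and 92.2, 79.5 and 87.8 CPM in ID8 libraries. The ID8 libraries were all above the naive ones within each genotype, with log2 changes of 0.38 in WT (SE 0.12, edgeR adjusted p = 0.0245) and 0.45 in Tim4KO (SE 0.12, edgeR adjusted p = 0.0163). The WT call of Ebp was lost without any 1 of the WT naive libraries or without WT ID8 3 (log2 0.35 to 0.41, adjusted p 0.0511 to 0.0836), and the Tim4KO call without Tim4KO naive 2 or 3 or Tim4KO ID8 1 or 3 (0.41 to 0.46, adjusted p 0.0595 to 0.093). Dhcr7, the reductase of the last step to cholesterol, was at 18.1, 10.2 and 11.6 CPM in WT naive and 18.3, 20 and 20.9 CPM in WT ID8. In Tim4KO it was at 15, 12.1 and 9.97 CPM in naive and 25.1, 24.0 and 23.5 CPM in ID8 libraries. WT naive 1 lay just below the lowest WT ID8 library, whereas the Tim4KO groups were well apart. Its log2 changes were 0.58 in WT (SE 0.20, edgeR adjusted p = 0.0396) and 0.97 in Tim4KO (SE 0.20, edgeR adjusted p = 0.00474). The WT call was lost without WT naive 2 or 3 or WT ID8 2 (log2 0.46, 0.52 and 0.61, adjusted p 0.0664 to 0.122), and the Tim4KO call was kept in all 12 such fits. The Tim4KO call of Ebp was also lost with upper-quartile scaling (0.34, adjusted p = 0.0511) and without the filter on low counts (0.50, adjusted p = 0.0544), within a range of 0.00571 to 0.093. Upper-quartile scaling lost the WT calls of both genes (Ebp 0.14, adjusted p = 0.333, and Dhcr7 0.33, adjusted p = 0.229), as did the fit of the WT groups alone and DESeq2 size factors in edgeR, and DESeq2 lost that of Dhcr7, within ranges over all settings of 0.0112 to 0.333 for Ebp and 0.00268 to 0.229 for Dhcr7.

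Mvk and Pmvk are the kinases that phosphorylate mevalonate ahead of Mvd, and both were called in Tim4KO. Pmvk was at 10.7, 7.06 and 7.21 CPM in Tim4KO naive and 14.5, 15.9 and 15.3 CPM in Tim4KO ID8, beside 12.6, 11.7 and 8.87 CPM in WT naive and 12.8, 13.7 and 13.8 CPM in WT ID8. The groups did not overlap in either genotype, though WT naive 1 and WT ID8 1 nearly met. The log2 change was 0.86 in Tim4KO (SE 0.19, edgeR adjusted p = 0.00671) and 0.29 in WT (SE 0.19, edgeR adjusted p = 0.24). The test of the difference between these responses gave 0.58 (SE 0.27, edgeR adjusted p = 0.668). Mvk was at 6.56, 5.46 and 3.66 CPM in Tim4KO naive and 8.84, 10.1 and 9.22 CPM in Tim4KO ID8. In WT it was at 7.47, 4.67 and 5.17 CPM in naive and 7.94, 7.13 and 8.67 CPM in ID8 libraries. The WT groups overlapped and the Tim4KO groups did not. Its log2 changes were 0.85 in Tim4KO (SE 0.24, edgeR adjusted p = 0.0244) and 0.47 in WT (SE 0.24, edgeR adjusted p = 0.136), and the responses differed by 0.38 (SE 0.34, edgeR adjusted p = 0.767). The Tim4KO call of Mvk was lost without any 1 of the Tim4KO libraries except Tim4KO naive 1 (log2 0.65 to 0.91, adjusted p 0.0557 to 0.122) and with upper-quartile scaling (0.74, adjusted p = 0.0549). Without both naive libraries numbered 1, a setting chosen after the data were seen, it was called in WT too (0.70, edgeR adjusted p = 0.0432, range 0.0432 to 0.486).

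Across the sterol branch, 3 of 18 enzymes were called higher in WT (16.7%, a share near the 19.5% of all genes) and 5 of 18 in Tim4KO (27.8%, beside 11.5%), and 0 were called lower in either. The median log2 change was 0.33 in WT and 0.63 in Tim4KO, beside -0.04 and -0.05 over all tested genes. The 13 enzymes called in neither genotype included Hmgcs1, HMG-CoA synthase, with log2 changes of -0.15 in WT and 0.14 in Tim4KO, and Msmo1, the methylsterol oxidase, with -0.06 and 0.30. Sc5d, the sterol desaturase, was the member of this branch with a negative estimate in both genotypes, -0.26 (SE 0.14, edgeR adjusted p = 0.161) and -0.28 (SE 0.14, edgeR adjusted p = 0.206). Upper-quartile scaling called it lower in WT (-0.50, edgeR adjusted p = 0.0115, within a range of 0.0115 to 0.57). Idi1, the isomerase that follows Mvd, ranged from 5.52 to 16.7 CPM, with log2 changes of 0.21 and 0.49. Lss, lanosterol synthase, ranged from 7.33 to 12.6 CPM, with 0.14 and 0.32. Hsd17b7, a sterol ketoreductase, was at 11.4, 12.8 and 5.29 CPM in WT ID8, and WT ID8 3 was the low library. Without WT ID8 3 its WT change was called at 0.89 (edgeR adjusted p = 0.0162, range 0.0162 to 0.569, against 0.54 and 0.24 with all libraries). Its Tim4KO change was then called at 0.72 (edgeR adjusted p = 0.044, range 0.0328 to 0.45, against 0.70 and 0.195), and it was called with the replicate number as a block in WT (0.70, edgeR adjusted p = 0.0343). The fit of the Tim4KO groups alone called it too. A WT library can alter a Tim4KO call because the reported fit takes the filter, the scaling and the spread from all 12 libraries. Tm7sf2, a sterol reductase at 1.67 to 5.53 CPM, had log2 changes of 0.74 in WT (SE 0.32, edgeR adjusted p = 0.087) and 0.92 in Tim4KO (SE 0.32, edgeR adjusted p = 0.0613). The replicate number was also used as a block in WT, where deviations of same-numbered libraries correlated at 0.103 to 0.423. The Tm7sf2 response in WT was then called at 0.85 (edgeR adjusted p = 0.0377, within a range of 0.00381 to 0.3 over all settings). It was also called in WT without WT naive 1 (1.30, edgeR adjusted p = 0.00401) and in Tim4KO without WT naive 1 or WT ID8 3 (0.92 and 0.94, edgeR adjusted p = 0.0152 and 0.028) or with that block (0.92, edgeR adjusted p = 0.0381), within a range of 0.0132 to 0.161. Limma voom and the fit without both naive libraries numbered 1 called Tm7sf2 in both genotypes. The fit of the Tim4KO groups alone called it as well. Exons of Tm7sf2 overlap those of Vps51 over 12.1% of their length, and the counting rule for shared reads is not given in the sources used here.

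The sterol enzymes varied more among the naive libraries than among the ID8 libraries. Their summed level was 296.9 ± 50.2 and 293.2 ± 74.5 CPM in WT and Tim4KO naive, beside 370.8 ± 14.6 and 430.5 ± 21.1 CPM in the same genotypes after challenge (SD, n = 3). In WT naive 1, 15 of the 18 enzymes stood above WT naive 2 and 3 (83.3%, beside 36.0% of all tested genes), and in Tim4KO naive 1, 16 of 18 stood above Tim4KO naive 2 and 3 (88.9%, beside 36.4%). The median ratio of library 1 to the mean of libraries 2 and 3 over the enzymes was 1.5 in WT and 1.54 in Tim4KO, with ranges of 0.857 to 2.53 and 0.876 to 2.60, whereas the median over all tested genes was 0.989 and 0.991. Fdps, farnesyl diphosphate synthase, had a wide gap and was chosen as an example after its values were seen. It was at 25.1, 12 and 8.45 CPM in WT naive and 25.3, 9.32 and 10.2 CPM in Tim4KO naive. Its levels after challenge were 22.1, 20.9 and 23.3 CPM in WT ID8 and 30.7, 39.8 and 30.0 CPM in Tim4KO ID8. Library 1 of each naive group lay above every WT ID8 library, and every Tim4KO ID8 library lay above both. In the fatty acid branch 3 of 8 tested genes were highest in WT naive 1 (37.5%) and 1 of 8 in Tim4KO naive 1 (12.5%).

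**Figure D2:**
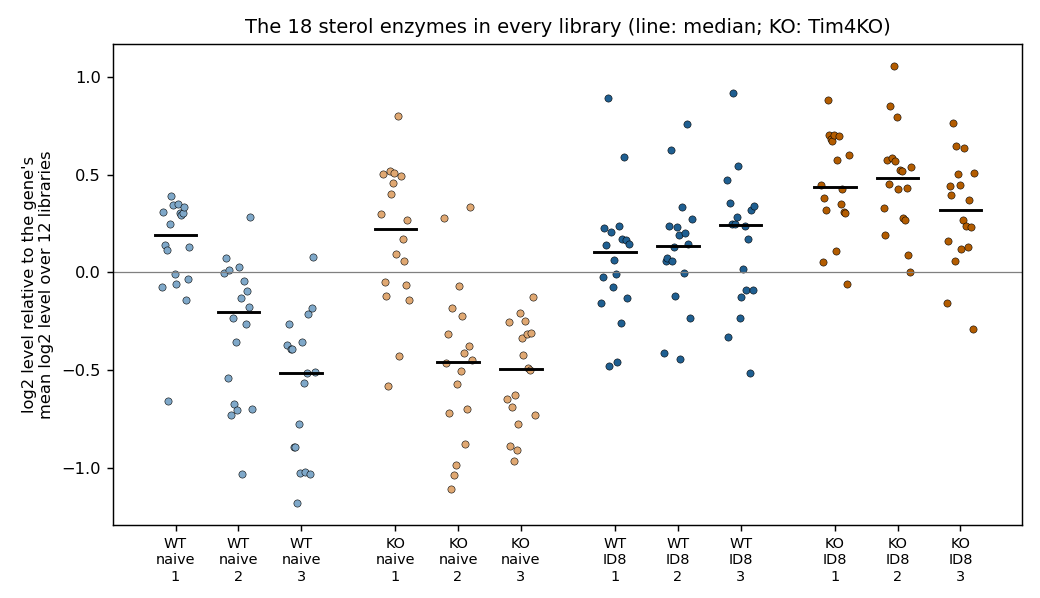
Log2 level of each of the 18 sterol enzymes (points) relative to that gene's own mean log2 level over the 12 libraries, by library, with the median as a line. The medians of WT naive 1 (0.19) and Tim4KO naive 1 (0.22) lie near those of WT ID8 (0.10 to 0.24), the other naive libraries lie between -0.51 and -0.20, and Tim4KO ID8 lies highest (0.32 to 0.48).

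The cell cycle list was lowest in library 1 of both naive groups, at 368.5 against 409.3 and 532.3 CPM in WT and at 318.5 against 376.7 and 497.5 CPM in Tim4KO. Its member Mki67 was at 18.1, 29.8 and 56.7 CPM in WT naive and at 16.9, 49.3 and 60.4 CPM in Tim4KO naive. Other lists stood out in WT naive 1 more than in Tim4KO naive 1. A list of 8 markers of small peritoneal macrophages and dendritic cells, all 8 of them detected, summed to 507.1 CPM in WT naive 1 against 265.4 and 260.1 CPM in WT naive 2 and 3. It summed to 388.1 CPM in Tim4KO naive 1 against 359.1 and 290.8 CPM in Tim4KO naive 2 and 3, with 103.2 to 385.1 CPM in WT ID8 and 271.2 to 344.7 CPM in Tim4KO ID8. Most of it came from the MHC class II genes Cd74, H2-Aa and H2-Ab1, while the dendritic cell gene Flt3 was at 0.399 to 2.27 CPM in the naive libraries. Background reads were at 813.5, 316.0 and 433.2 CPM in WT naive and at 346.1, 259.0 and 435.3 CPM in Tim4KO naive. The epithelial list was at 22.5 CPM in WT naive 1 and at 5.14 to 8.31 CPM in the other naive libraries. The part of these differences in the sterol result was not tested. Most sterol enzymes were highest of their group in WT naive 1 and Tim4KO naive 1. Leaving out either library therefore raises their challenge changes by construction, and the resulting calls are no separate support for a rise. With both of these libraries left out, a setting chosen after the data were seen, 7 of 18 sterol enzymes were called higher in WT and 12 in Tim4KO, where 15.7% and 12.1% of all tested genes were. Fdps was then called in both, at log2 1.12 in WT (edgeR adjusted p = 0.00183, against 0.56 and 0.324 with all libraries) and 1.78 in Tim4KO (edgeR adjusted p = 0.00019, against 1.15 and 0.0955). Leaving out Tim4KO naive 1 alone gave 11 enzymes in Tim4KO (12% of all genes). Leaving out WT naive 1 alone gave 4 in WT (14.5% of all genes), with Sqle at 0.89 and Tm7sf2 at 1.30. Leaving out WT ID8 3 gave 8 in Tim4KO (14% of all genes), whereas leaving out any 1 of Tim4KO naive 2 and 3 or Tim4KO ID8 1 and 3 left 3 (5.41% to 7.41% of all genes).

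The enzymes that entered in Tim4KO without Tim4KO naive 1 were Fdps at log2 1.79, Fdft1 (squalene synthase) at 1.47, Sqle (squalene epoxidase) at 1.04, Nsdhl at 0.96, Cyp51 (lanosterol demethylase) at 0.94 and Msmo1 at 0.67, with edgeR adjusted p from 0.00472 to 0.025. With all libraries their log2 changes were 1.15, 0.86, 0.66, 0.60, 0.36 and 0.30, with edgeR adjusted p from 0.091 to 0.488. Fdps and Nsdhl were also called in Tim4KO with the replicate number as a block in all groups (1.29 and 0.64, edgeR adjusted p = 0.0327 and 0.0416), Fdps without WT naive 1 (1.16, edgeR adjusted p = 0.0336) and Nsdhl without WT ID8 3 (0.62, edgeR adjusted p = 0.0369). Over all settings the adjusted p of Fdps and Nsdhl in Tim4KO ran from 0.00019 to 0.287 and from 0.00448 to 0.322. Fdps, Fdft1 and Sqle were also called in Tim4KO without the filter on low counts. Limma voom called Fdps and Fdft1, and DESeq2 called Fdps. Some of these counts are less certain than others. Exons of Fdft1 overlap those of Ctsb on the opposite strand over 18.3% of their length, with 1014988 counts in Ctsb against 1571 in Fdft1 over the 12 libraries. Of the Fdps exons, 26.7% overlap Gm43738. Of the 50-base windows of Acat2, the cytosolic thiolase, 39.1% also occur in other transcripts, mainly those of Acat3 and Tcp1, and its log2 changes were 0.18 and 0.20.

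Among the regulators, Srebf1 and Scap rose and Insig1 fell in WT, and Srebf1 rose in Tim4KO. Srebf1, which encodes the SREBP most tied to fatty acid genes, was at 37.3, 39.9 and 39.6 CPM in WT naive and 41.2, 37.9 and 44.1 CPM in Tim4KO naive. After challenge it was at 48.0, 53.7 and 61.9 CPM in WT ID8 and 63.6, 70.7 and 59.0 CPM in Tim4KO ID8. All ID8 libraries were above all naive libraries, and only WT ID8 3 reached into the range of Tim4KO ID8. Means rose from 38.9 ± 1.44 to 54.5 ± 6.98 CPM in WT (SD, n = 3) and from 41.1 ± 3.08 to 64.4 ± 5.91 CPM in Tim4KO (SD, n = 3). These are log2 changes of 0.49 (SE 0.13, edgeR adjusted p = 0.00881) and 0.65 (SE 0.13, edgeR adjusted p = 0.00298). The WT call was lost with upper-quartile scaling (0.25, edgeR adjusted p = 0.118) and in the fit of the WT groups alone (0.39, edgeR adjusted p = 0.0688), within a range of 0.003 to 0.118 over all settings.

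Insig1, which encodes the protein that retains SREBP precursors and is itself a known SREBP target, was the only member called lower. It was at 63.8, 59.3 and 53.2 CPM in WT naive and 33.6, 37.7 and 45.2 CPM in WT ID8. In Tim4KO it was at 60.0, 54.1 and 43.7 CPM in naive and 58.4, 52.4 and 53.3 CPM in ID8 libraries. The WT ID8 libraries lay below all WT naive and all Tim4KO ID8 libraries, while the Tim4KO groups overlapped. In WT the mean fell from 58.8 ± 5.34 to 38.9 ± 5.89 CPM (SD, n = 3), a log2 change of -0.59 (SE 0.14, edgeR adjusted p = 0.00687), and in Tim4KO the change was 0.06 (SE 0.14, edgeR adjusted p = 0.817). The difference between the responses was 0.65 (SE 0.20, edgeR adjusted p = 0.668, unadjusted p = 0.00617) and did not pass over all genes. The WT call was kept in all 12 fits that left out 1 library and was lost without the filter on low counts (-0.48, edgeR adjusted p = 0.0554, within a range of 0.000751 to 0.0554).

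Scap, the escort of SREBP, was at 18.4, 19.4 and 18.1 CPM in WT naive and 22.1, 26.8 and 26.3 CPM in WT ID8. In Tim4KO it was at 19.6, 23.3 and 23 CPM in naive and 27.7, 28.2 and 27.0 CPM in ID8 libraries. The groups did not overlap in either genotype, and the log2 changes were 0.43 in WT (SE 0.13, edgeR adjusted p = 0.021) and 0.33 in Tim4KO (SE 0.13, edgeR adjusted p = 0.0938). The WT call was lost without WT naive 1 or 3 or WT ID8 2 (0.41 to 0.43, adjusted p 0.0546 to 0.0649) and with upper-quartile scaling (0.18, adjusted p = 0.23) or in the fit of the WT groups alone (0.33, adjusted p = 0.131, within a range of 0.00787 to 0.23). Srebf2, which encodes the SREBP most tied to cholesterol genes, was at 61.1, 58.6 and 45.4 CPM in WT naive and 81.8, 49.1 and 52.7 CPM in Tim4KO naive. The ID8 libraries held 37.6, 52.1 and 49.4 CPM in WT ID8 and 72.9, 72.0 and 63.8 CPM in Tim4KO ID8. Tim4KO naive 1 was its highest library and WT ID8 1 its lowest. Its challenge log2 change was -0.24 in WT (SE 0.19, edgeR adjusted p = 0.322) and 0.18 in Tim4KO (SE 0.19, edgeR adjusted p = 0.558), and with upper-quartile scaling it was called lower in WT (-0.49, edgeR adjusted p = 0.0498, within a range of 0.0498 to 0.87). Stard4, a cytosolic sterol carrier, was at 7.02, 6.53 and 14.1 CPM in WT ID8 and 14.5, 12.6 and 14.3 CPM in Tim4KO ID8, and WT ID8 3 alone of its group reached the Tim4KO range. Its challenge log2 changes were -0.18 in WT and 0.59 in Tim4KO, and the Tim4KO change was called without WT ID8 3 (0.62, edgeR adjusted p = 0.0275, range 0.0275 to 0.48). The Tim4KO change was also called in the fit of the Tim4KO groups alone. Of the 5 regulators and carrier, 2 were called higher and 1 lower in WT, where 19.5% and 12.3% of all tested genes were. In Tim4KO 1 was called higher, where 11.5% of all tested genes were. A list of 5 genes is too short to tell these counts from those shares. The median log2 change was -0.18 in WT and 0.33 in Tim4KO, beside -0.04 and -0.05 over all tested genes.

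**Figure D3:**
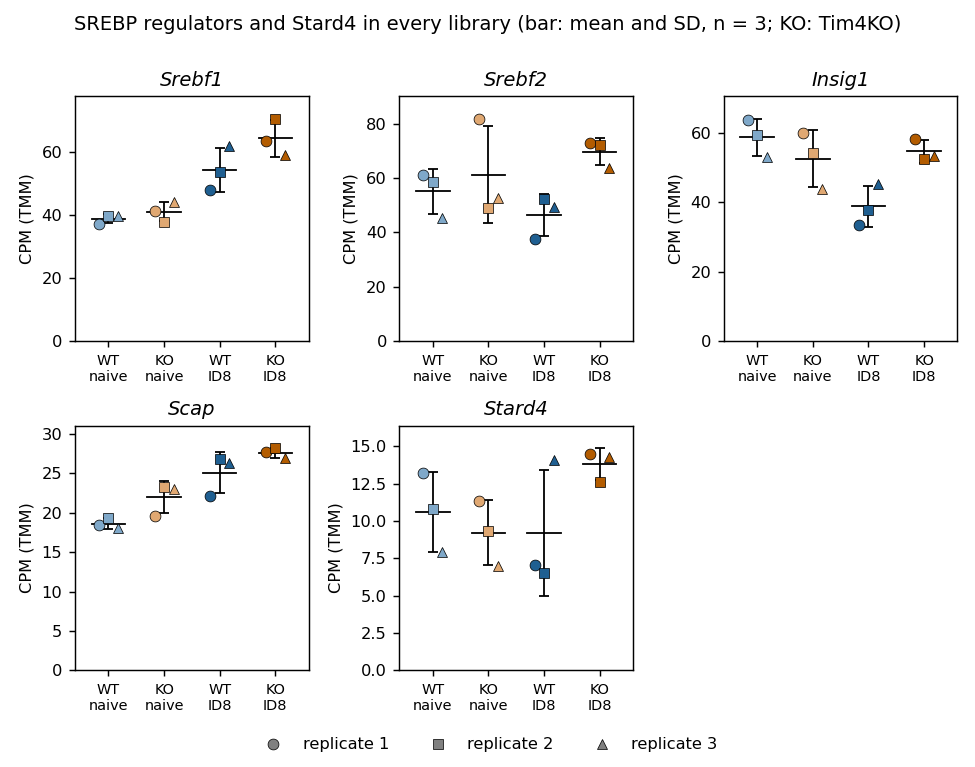
Level (CPM, TMM-scaled, axis from 0) of Srebf1, Srebf2, Insig1, Scap and Stard4 in each library, by group, with marker shape for the replicate number and bars for the mean and SD of 3 libraries. Insig1 is lowest in WT ID8 (33.6 to 45.2 CPM), and Stard4 in WT ID8 3 (14.1 CPM) lies apart from the other WT ID8 libraries.

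The fatty acid branch held the largest increases. Scd1 and Scd2 encode stearoyl-CoA desaturases, which place a double bond in saturated fatty acids. Scd1 was at 1.41, 1.14 and 0.978 CPM in WT naive and 0.902, 1.07 and 0.901 CPM in Tim4KO naive, or 8 to 17 counts per library. After challenge it was at 11.6, 7.22 and 14.9 CPM in WT ID8 and 9.61, 8.40 and 8.41 CPM in Tim4KO ID8. Every ID8 library was above every naive one, and WT ID8 spanned the Tim4KO ID8 range. The mean rose from 1.17 ± 0.218 to 11.3 ± 3.87 CPM in WT (SD, n = 3) and from 0.956 ± 0.0945 to 8.81 ± 0.693 CPM in Tim4KO (SD, n = 3). These are log2 changes of 3.28 (SE 0.29, edgeR adjusted p = 3.12e-06) and 3.21 (SE 0.30, edgeR adjusted p = 9.09e-06). Scd2 was at 10.1, 4.61 and 7.19 CPM in WT naive and 3.44, 5.33 and 6.08 CPM in Tim4KO naive. Its levels after challenge were 34.8, 26.0 and 33.9 CPM in WT ID8 and 23.6, 24.5 and 23.4 CPM in Tim4KO ID8. Here too the conditions did not overlap, with log2 changes of 2.13 in WT (SE 0.25, edgeR adjusted p = 3.8e-05) and 2.26 in Tim4KO (SE 0.26, edgeR adjusted p = 6.19e-05). Of their 50-base windows, 4.56% (Scd1) and 3.97% (Scd2) also occur in other transcripts, mainly of the Scd family. Per kilobase, Scd2 was the more abundant of the pair in WT ID8, at 5.77 against 2.30 CPM per kb for Scd1.

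Fasn, the synthase that makes palmitate, was at 33.4, 27.1 and 24.0 CPM in WT naive and 23.2, 16.9 and 28.2 CPM in Tim4KO naive. After challenge it was at 49.7, 40.5 and 57.6 CPM in WT ID8 and 61.6, 69.5 and 63.9 CPM in Tim4KO ID8. The ID8 libraries were above all naive ones, and the 3 Tim4KO ID8 libraries were above the 3 WT ID8 libraries. Its mean rose from 28.1 ± 4.79 to 49.3 ± 8.57 CPM in WT (SD, n = 3) and from 22.8 ± 5.64 to 65.0 ± 4.08 CPM in Tim4KO (SD, n = 3). These are log2 changes of 0.81 (SE 0.18, edgeR adjusted p = 0.00387) and 1.5 (SE 0.18, edgeR adjusted p = 0.000107). The responses differed by 0.68 (SE 0.26, edgeR adjusted p = 0.668, unadjusted p = 0.017), which did not pass over all genes. Scd1, Scd2 and Fasn were called in both genotypes in all 12 fits that left out 1 library and in all 9 other settings.

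Acly, ATP-citrate lyase, which supplies the cytosolic acetyl-CoA of both branches, was at 855.9, 1058 and 1003 CPM in WT naive and 1182, 1448 and 1436 CPM in WT ID8. In Tim4KO it was at 1007, 1016 and 941.1 CPM in naive and 1257, 1333 and 1219 CPM in ID8 libraries. No ID8 library overlapped a naive one, and the log2 changes were 0.48 in WT (SE 0.13, edgeR adjusted p = 0.00999) and 0.36 in Tim4KO (SE 0.13, edgeR adjusted p = 0.0614). The WT call was lost without WT naive 1 (0.40, adjusted p = 0.0513) and with upper-quartile scaling (0.24, adjusted p = 0.0788) or in the fit of the WT groups alone (0.38, adjusted p = 0.081), within a range of 0.00141 to 0.081. The Tim4KO change of Acly was called with the replicate number as a block in WT (0.36, edgeR adjusted p = 0.0255, range 0.0255 to 0.222), in the fit of the Tim4KO groups alone and by DESeq2. Elovl6, the elongase of saturated fatty acids, was at 4.66, 5.21 and 5.31 CPM in WT naive and 2.95, 1.73 and 2.70 CPM in Tim4KO naive. The ID8 libraries held 3.22, 6.10 and 3.79 CPM in WT ID8 and 4.07, 6.74 and 4.67 CPM in Tim4KO ID8. Tim4KO naive was the low group, below all other libraries. In Tim4KO the challenge log2 change was 1.03 (SE 0.30, edgeR adjusted p = 0.0289), which was lost without Tim4KO naive 2 or 3 or Tim4KO ID8 2 or 3 (0.84 to 1.12, adjusted p 0.0548 to 0.141) and by limma voom (0.94, adjusted p = 0.0514). In WT it was -0.21 (SE 0.29, edgeR adjusted p = 0.579). The difference between the responses was 1.24 (SE 0.42, edgeR adjusted p = 0.668, unadjusted p = 0.00918).

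The other tested fatty acid genes were not called. Acaca, the acetyl-CoA carboxylase that makes malonyl-CoA, ranged from 121.3 to 222.9 CPM, with log2 changes of -0.23 in WT and -0.28 in Tim4KO. Elovl5 ranged from 295.3 to 519.7 CPM, with -0.20 and -0.23. Upper-quartile scaling called both lower in WT (-0.46 and -0.44, edgeR adjusted p = 0.0427 and 0.027, within ranges of 0.0427 to 0.708 and 0.027 to 0.792). For Acaca, 30.4% of its 50-base windows also occur in other transcripts, mainly of Gm5182. Fads1, the other fatty acid desaturase, had log2 changes of 1.21 in WT (edgeR adjusted p = 0.0672) and 1.07 in Tim4KO (edgeR adjusted p = 0.143). It was at 4.6, 2.06 and 11.3 CPM in WT ID8, a wider spread than in any other group. It was called in WT without WT ID8 1 or 2 (1.45 and 1.65) and in Tim4KO without WT ID8 2 or 3 (1.09 and 1.08), with adjusted p over all settings from 0.000474 to 0.509 in WT and from 0.00716 to 0.357 in Tim4KO. Without the filter on low counts Fads1 was called in both genotypes, and the fit of the Tim4KO groups alone called it too. Of the 8 tested genes, 4 were called higher in each genotype (50.0%, beside 19.5% and 11.5% of all genes) and 0 lower, with median log2 changes of 0.65 in WT and 1.05 in Tim4KO.

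**Figure D4:**
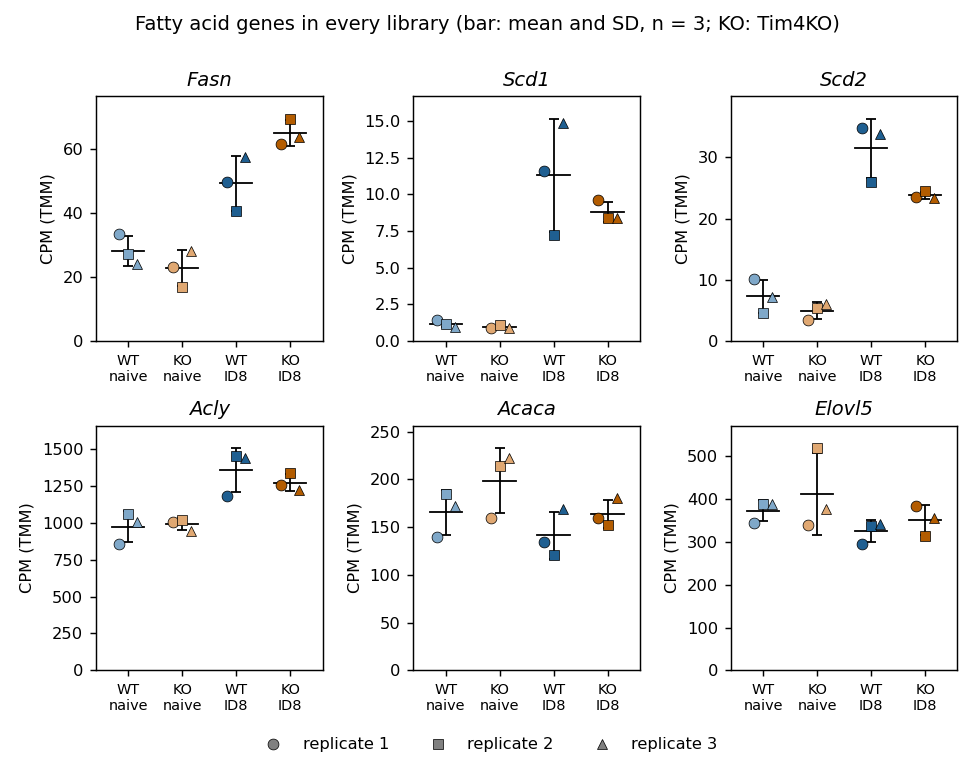
Level (CPM, TMM-scaled, axis from 0) of Fasn, Scd1, Scd2, Acly, Acaca and Elovl5 in each library, by group, with marker shape for the replicate number and bars for the mean and SD of 3 libraries. Fasn, Scd1, Scd2 and Acly are higher in every ID8 library than in every naive library, whereas Acaca and Elovl5 overlap between conditions in Tim4KO.

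No member was called between the genotypes, in naive cells or after challenge. In naive cells 0 of 31 were called (beside 0.0251% of all tested genes higher and 0.0188% lower, 0.0439% or 7 genes in all). Of the members 1 had an unadjusted edgeR p under 0.05, Elovl6 with a log2 difference of -1.01 for Tim4KO against WT (SE 0.30, unadjusted p = 0.00419, edgeR adjusted p = 0.565). The median over the sterol enzymes was -0.03, beside 0.00 over all tested genes. After challenge 0 of 31 were called (beside 0.00627% of all tested genes higher and 0.0502% lower, 0.0565% or 9 genes in all). Of the members 5 had an unadjusted edgeR p under 0.05, beside 1935 of 15943 genes. These were Insig1 (log2 difference 0.49, SE 0.14, unadjusted p = 0.00412, edgeR adjusted p = 0.244), Srebf2 (0.58, SE 0.19, unadjusted p = 0.00741, edgeR adjusted p = 0.277), Sqle (0.62), Cyp51 (0.72) and Fasn (0.40). DESeq2 and limma voom also called 0 members in both genotype comparisons.

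Although none was called, levels of sterol enzymes and regulators in the ID8 libraries were mostly higher in Tim4KO. The estimate was positive for 17 of 18 sterol enzymes, with a median log2 difference of 0.23, and for 5 of 5 regulators and carrier, with a median of 0.49, beside 0.01 over all tested genes. It was positive for 5 of 8 genes of the fatty acid branch, with a median of 0.16, and for 14 of the 32 other pathway genes described last, with a median of -0.06. Sterol enzymes shifted together between libraries of the same naive group. Counts of members in this paragraph are therefore not independent observations and rest on 3 libraries per group. The libraries of the genotypes did not overlap for 12 of 31 members with Tim4KO higher, where 7.06% of all tested genes did so: Cyp51, Dhcr7, Fdps, Msmo1, Mvk, Pmvk, Sqle and Tm7sf2 of the sterol branch, Insig1, Scap and Srebf2 of the regulators, and Fasn. They did not overlap for 1 member with Tim4KO lower, Scd2 (8.56% of all genes), at 23.8 ± 0.562 CPM against 31.5 ± 4.85 CPM in WT (SD, n = 3). Sqle, for example, was at 12.2, 13.7 and 9.90 CPM in WT ID8 and at 19.0, 20.2 and 15.9 CPM in Tim4KO ID8, and Cyp51 at 7.14, 7.22 and 9.95 CPM and at 14.6, 14.1 and 11.8 CPM. The summed level of the 18 enzymes was 361.1 to 387.6 CPM in WT ID8 and 406.2 to 444.8 CPM in Tim4KO ID8. In naive cells the corresponding counts were 1 higher (Scap, where 7.34% of all genes did so) and 1 lower (Elovl6, 6.84%).

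These differences moved when WT ID8 3, the library with high cell cycle genes, was left out. Insig1 (log2 0.62, edgeR adjusted p = 0.0231, against a range over settings up to 0.712), Stard4 (1.03, edgeR adjusted p = 0.00895, range up to 0.825) and Fads1 (1.21, edgeR adjusted p = 0.0302, range up to 0.987) were then called higher in Tim4KO ID8 than in WT ID8. Srebf2 was at 0.63 (edgeR adjusted p = 0.0805), and the number of genes called went from 9 to 997. The part of the cell cycle genes in these differences was not tested. The interaction, which is the Tim4KO response minus the WT response, called 0 of 31 members and 0 of all genes (0.0%) by edgeR, with 1186 genes and 4 members (Insig1, Elovl6, Fasn and Pmvk) at an unadjusted p under 0.05. By DESeq2 it called 11 genes and 0 members. Without WT ID8 3 the interaction called 368 genes, among them Stard4 (1.23, edgeR adjusted p = 0.0314, against 0.77 and 0.675 with all libraries). The median interaction was 0.28 over the sterol enzymes and -0.04 over the fatty acid branch, beside 0.01 over all genes. The WT and Tim4KO challenge responses share no libraries, but the interaction and the ID8 genotype difference share all 6 ID8 libraries.

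A further 35 genes of the same pathways, listed from general knowledge, gave 32 tested genes. In WT 10 of these were called higher (31.2%, beside 19.5% of all tested genes) and 1 lower after challenge, with a median log2 change of 0.25. In Tim4KO 4 were called higher (12.5%, near the 11.5% of all tested genes) and 0 lower, with a median of 0.22. Elovl1, an elongase of very long fatty acids, rose in both, from 88.8 ± 3.04 to 169.6 ± 20.4 CPM in WT (SD, n = 3; log2 0.93, edgeR adjusted p = 0.000189) and from 99.3 ± 15.7 to 142.8 ± 11.5 CPM in Tim4KO (SD, n = 3; log2 0.52, edgeR adjusted p = 0.0155). Its Tim4KO call was lost without Tim4KO naive 2 or 3 or Tim4KO ID8 1 or 2 (0.47 to 0.55, adjusted p 0.0545 to 0.092). Mecr, of mitochondrial fatty acid synthesis, rose by log2 0.87 in WT (edgeR adjusted p = 0.00275) and 1.11 in Tim4KO (edgeR adjusted p = 0.00117), and Erg28, of the sterol demethylation complex, by 0.62 in WT (edgeR adjusted p = 0.00722) and 0.79 in Tim4KO (edgeR adjusted p = 0.00299). The WT call of Erg28 was lost with upper-quartile scaling (0.37, adjusted p = 0.0672, within a range of 0.000901 to 0.0672). The fourth gene called in Tim4KO was Acat1, at 0.51 (edgeR adjusted p = 0.0227), which was also called in WT at 0.56 (edgeR adjusted p = 0.00765). Its Tim4KO call was lost without any 1 of the Tim4KO libraries except Tim4KO naive 1 (0.45 to 0.56), and both of its calls with upper-quartile scaling (0.32 in WT and 0.40 in Tim4KO). The gene called lower in WT was Lpin1, at -0.99 (edgeR adjusted p = 0.00528). Acat1 and Lpin1 were named after their values were seen. Me1, malic enzyme, a source of NADPH for fatty acid synthesis, rose in WT from 5.50 ± 0.967 to 13.0 ± 1.14 CPM (SD, n = 3; log2 1.25, edgeR adjusted p = 0.00467) and stood at 4.17 ± 1.21 and 4.31 ± 1.75 CPM in Tim4KO naive and Tim4KO ID8 (SD, n = 3). Its log2 difference between genotypes after challenge, -1.60 for Tim4KO against WT, did not pass (SE 0.29, edgeR adjusted p = 0.0574), but did without Tim4KO naive 1 or 3 or WT ID8 1 or 3 (-1.61, -1.63, -1.70 and -1.65), without the filter on low counts and by DESeq2 and limma voom (adjusted p from 2.36e-06 to 0.247 over all settings). In the reported edgeR fit 0 of the 32 were called in either genotype comparison or the interaction.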

How the data were processed

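RNA-seq libraries of sorted mouse peritoneal macrophages were used, 3 from each of 4 groups. The authors deposited raw counts of reads per Ensembl gene, 57010 genes in 12 columns, all matched to libraries by name; whole numbers with unequal totals showed that they were not normalized. Per the labels' protocols, RNA came from the RNeasy micro kit and libraries from the SMART-Seq mRNA LP kit. FastQC, STAR 2.5, mm10 and GRCm39 are named in the submitters' processing notes; the counting program, the annotation, strand and multi-mapping are not given in the sources used here, so genes with overlapping or near-identical exons are uncertain. Names and exon lengths came from GENCODE vM21, promoters from RefSeq (GRCm38.p6); 52029 identifiers had a name.

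Counts were normalized by TMM and tested with edgeR 4.0.16 in R 4.3.3 (filterByExpr, 15943 genes kept; robust quasi-likelihood fit of 4 group means to all 12 libraries, 8 residual degrees of freedom; Benjamini-Hochberg adjusted p under 0.05). Standard errors were the size of the log2 change over the root of the F statistic. The fit was tested on simulated counts. A count of 3 was worth 0.129 to 0.408 CPM; the use of molecular identifiers is not given in the sources used here, and such limits cover counting error only. Counts of within-group pairs differed by 5.39 to 88.1 chi-square per degree of freedom, so no library was a copy of another.

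Alternatives were other scalings, no filter, DESeq2 1.42.0, limma 3.58.1 voom, fits of 2 groups, a replicate block and leaving out each library. Filter, scaling and spread were taken over all libraries of a fit. Leaving out a library can therefore also move calls between groups that do not hold it. Deviations of same-numbered libraries correlated at 0.103 to 0.423 between WT naive and WT ID8 and at -0.498 to 0.22 between other groups. WT naive 2 correlated more with WT ID8 3 (0.232) than with WT ID8 2 (0.103), so pairing in WT is uncertain. The reported fit had no block and treated no libraries as paired. The block in WT alone and the fit without both naive libraries numbered 1 were chosen after seeing the data. Values in every library are given for members called in at least 1 comparison whose normalized counts averaged at least 50 and for Srebf2; for other pathway genes, up to 3 with the smallest p per comparison are named. Other genes were named after their values were seen. The members and lists were chosen with earlier results of these data known.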

Additional observations from a re-analysis of the deposited data

How the results depend on the processing

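Each result was recomputed in 12 fits that left out 1 library and in 9 other settings (8 for the interaction). Of the values of single members, 3121 kept their side of the threshold, 42 lost a call and 61 gained one, and no called value changed sign; 143 values called in neither setting did. Scd1, Scd2, Fasn and Mvd kept their calls in both genotypes throughout.

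The number of genes called between genotypes in naive cells (7) was 59 without the filter on low counts, 52 by DESeq2, 3 by limma voom, 2 with only the 2 groups, 3 with the replicate block, 1 with the block in WT only and 1 to 29 with 1 library left out. In ID8 cells (9) it was 264 without the filter, 265 by DESeq2, 14 with the replicate block, 20 with the block in WT only and 1 to 997 with 1 library left out. The interaction (0) called 73 without the filter, 11 by DESeq2, 1 without both naive libraries numbered 1 and 0 to 368 with 1 library left out. The challenge called 5067 genes in WT (3102 with only the 2 groups, 3362 to 7230 with 1 library left out) and 2642 in Tim4KO (1222 to 3595).

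In the WT challenge, sterol enzymes called higher (3) were 1 with DESeq2 size factors, 1 with upper-quartile scaling, 1 with only the 2 groups, 7 without both naive libraries numbered 1 and 1 to 4 with 1 library left out. Regulators called higher (2) were 0 with upper-quartile scaling, 0 with only the 2 groups and 1 to 2 with 1 library left out. Upper-quartile scaling called 1 sterol enzyme, 2 regulators and 2 fatty acid genes lower (otherwise 0, 1 and 0), and no filter left 0 regulators lower. In the Tim4KO challenge, sterol enzymes called higher (5) were 3 with upper-quartile scaling, 8 by limma voom, 12 without both naive libraries numbered 1 and 3 to 11 with 1 library left out, and regulators (1) were 2 with only the 2 groups and 1 to 2 with 1 library left out. Between genotypes in ID8 cells, 0 to 2 regulators and 0 to 1 fatty acid genes were called higher with 1 library left out, and in the interaction 0 to 1 regulators. The cause of these shifts was not tested. Most sterol enzymes were highest in the naive libraries numbered 1, so leaving those out raises their challenge changes by construction.

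With the replicate number as a block in all groups, Fdps and Nsdhl were added in Tim4KO (log2 1.29 and 0.64) and no other member's call changed; the block in WT only added Tm7sf2 in both challenge comparisons and Hsd17b7 and Acly in that of Tim4KO. Only 4 of the 12 libraries had a higher mean correlation of deviations with libraries of their own number in other groups than with those of other numbers. The size of difference that this depth can show was not measured.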
